A study of Mus musculus with 104 samples.

Results

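CpG deserts are stretches of the genome that hold very few CpG dinucleotides, the sites at which mammalian DNA is methylated. Here the autosomes were divided into fixed 1 kb tiles, and a tile was kept where it held 1 to 4 CpGs and where no tile of 50 or more CpGs lay within 2 tiles. This gave 681067 desert tiles of 2365723 tiles with a CpG, which is 28.8% of the tiles but 9.48% of the CpGs (1929768 of 20364700). By their CpG number, 90234 tiles held 1 CpG, 158644 held 2, 206510 held 3 and 225679 held 4. The choice used CpG positions only, not methylation.

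Methylation had been measured in mouse embryos by a low-input bisulfite method, STEM-seq, in heads at embryonic day 8.5 without Kmt2b (Kmt2b-/-, here KO head), in WT heads of the same day (WT head) and in epiblasts at embryonic day 6.5 without Kmt2b (KO epiblast). Kmt2b encodes a histone methyltransferase that acts on lysine 4 of histone H3. The labels list 2 KO head, 2 WT head and 3 KO epiblast samples, but the authors deposited 1 pooled file for each group. Every value below is therefore that of a pool, with no replicate spread and no test of a condition, and genotype or stage cannot be told apart from other differences between the pooled embryos. Intervals are 95% Wilson intervals for a level and 95% Newcombe intervals for a difference, and they cover counting error only. Heads had been cut off near the neck and so held several tissues, and the labels do not give the strain of the Kmt2b embryos, although other embryos of the study came from crosses of DBA2 males with C57BL/6N females. Sequence differences between strains at these CpGs were not analysed here.

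In mammals, cytosine methylation is set up after implantation mainly by the enzymes Dnmt3a and Dnmt3b and is copied after each cell division by Dnmt1 with Uhrf1. Most CpGs end up methylated, whereas dense clusters of CpGs, the CpG islands, mostly stay free of methylation. CpGs that stand far from others are known from other studies to lose methylation more readily, above all in regions that replicate late.

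Desert CpGs were read thinly. The pools held 42047812 reads over CpGs in KO heads, 45262929 in WT heads and 29138288 in KO epiblasts, of which desert tiles took 2544951, 2709234 and 2084283 reads in that order. This is 1.32 reads per desert CpG in KO heads, 1.40 in WT heads and 1.08 in KO epiblasts, against 1.92, 2.07 and 1.37 reads per CpG in tiles of 5 to 49 CpGs. Of the desert CpGs, 27.4% were read in all 3 pools and 7.0% in none. Single desert tiles had a median of 3, 3 and 2 reads in KO heads, WT heads and KO epiblasts, so results rest on sums over many tiles.

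Desert tiles were highly methylated in all 3 pools. Of the reads over desert CpGs, 78.6% were methylated in KO heads (78.6% to 78.7%), 79.4% in WT heads (79.3% to 79.4%) and 74.7% in KO epiblasts (74.6% to 74.7%). In tiles of 5 to 49 CpGs away from dense tiles, which hold most CpGs of the genome, the levels were 77.7%, 78.4% and 74.6% in the same order. In summed reads deserts were thus slightly above this bulk of the genome in both head pools and nearly level with it in KO epiblasts. These sums mix CpGs of different depth, and the bulk was read more deeply. At CpGs read 1 time, deserts and bulk had 81.4% and 81.3% in KO heads, and 81.6% and 81.4% in WT heads. KO epiblasts had 75.9% and 76.2% there. At 5 reads the levels were 76.2% and 76.7%, 77.8% and 77.9%, and 75.4% and 75.1% in that order. The part of depth in the gap was not tested. Dense tiles of 50 or more CpGs had 5.71% in KO heads, 5.02% in WT heads and 9.46% in KO epiblasts, and tiles of fewer than 50 CpGs within 2 tiles of them had 38.9%, 38.2% and 42.7%.

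The sign of the differences between pools was not the same across these kinds of tile. KO heads were below WT heads in desert tiles (difference -0.73 percentage points, -0.80 to -0.66) and in tiles of 5 to 49 CpGs (difference -0.71), but above WT heads by 0.69 points in dense tiles. KO heads were 3.96 points above KO epiblasts in desert tiles (3.88 to 4.04) and 3.08 points above in tiles of 5 to 49 CpGs, while in dense tiles they stood below KO epiblasts (difference -3.75). Over all tiles the summed reads gave 67.6% in KO heads and 67.8% in KO epiblasts. These 2 values depend on where each pool had its reads. The weakly methylated dense tiles had 4.52 reads per CpG in KO heads and 2.27 in KO epiblasts. The near equality is therefore not one of levels per CpG.

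Within the deserts, methylation followed the number of neighbouring CpGs. Tiles with 1 CpG had 77.0% in KO heads, 77.7% in WT heads and 72.9% in KO epiblasts, and the level increased with each further CpG to 79.1%, 79.8% and 75.2% in tiles with 4. Just outside the limit, tiles of 5 CpGs had 79.5%, 80.2% and 75.5%. The distance to the nearest other CpG separated the levels more widely. Desert CpGs with another CpG within 20 bases had 82.2% in KO heads, 82.8% in WT heads and 77.6% in KO epiblasts, and those whose nearest CpG was over 400 bases away had 76.9%, 77.7% and 73.0%. The decline was not even, since CpGs with a neighbour at 51 to 100 bases (77.9% in KO heads) lay below those with a neighbour over 100 and up to 200 bases away (78.2%).

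Isolation on a larger scale went with smaller differences. Desert tiles 3 to 10 tiles from a dense tile had 77.6% in KO heads, 78.3% in WT heads and 73.8% in KO epiblasts, those 31 to 100 tiles away had 78.9%, 79.6% and 75.0%, and those over 300 tiles away had 78.6%, 79.3% and 74.7%. The tiles formed 354556 runs of adjacent desert tiles, most of them short (median length 1), and the longest had 25 tiles (chr3:77516000-77540999, mm9). Tiles that stood alone had 79.1% in KO heads, 79.7% in WT heads and 75.3% in KO epiblasts, against 77.7%, 79.0% and 73.3% in runs of 11 or more. KO heads were below WT heads in these long runs (difference -1.28, -1.82 to -0.75) and in lone tiles (difference -0.65, -0.77 to -0.53).

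**Figure D1:**
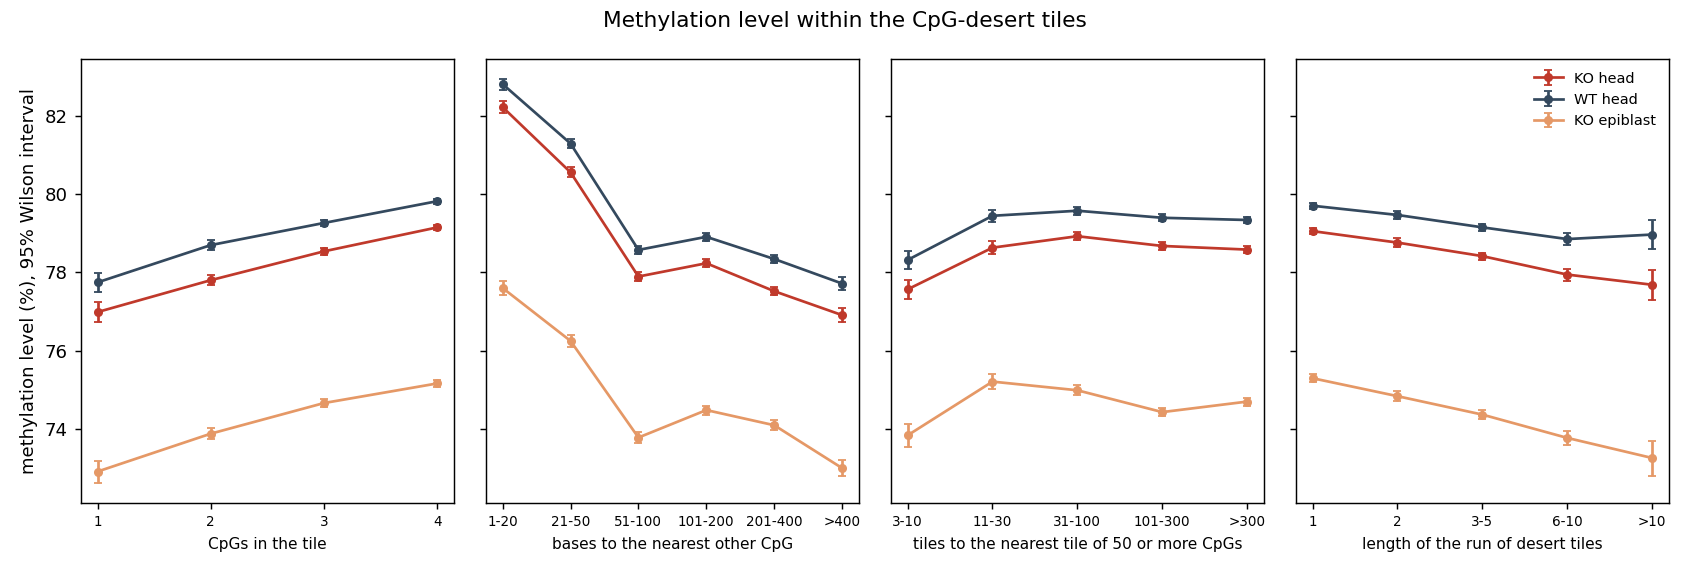
Methylation level of desert CpGs (%, vertical axis, which does not start at 0) by CpGs in the tile, bases to the nearest other CpG, tiles to the nearest tile of 50 or more CpGs, and length of the run of desert tiles, for the 3 pools, with 95% Wilson intervals as bars. In all 3 pools the level is highest where another CpG lies within 20 bases, and in each bin WT heads are highest and KO epiblasts lowest.

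Position along the chromosome and CpG density of the surroundings made little difference in the head pools and a larger one in KO epiblasts. In the first 10 Mb with CpGs of each chromosome deserts had 78.6% in KO heads, 79.7% in WT heads and 73.9% in KO epiblasts, and in the last 10 Mb 78.9%, 79.8% and 75.3%. Among 1 Mb windows sorted by their CpG number into 4 sets of nearly equal size, deserts of the CpG-poorest set had 78.2%, 79.1% and 74.2%, and of the richest set 78.6%, 79.5% and 75.4%. The window level was at most weakly related to the CpG number of the window (Pearson r = 0.10 in KO heads, 0.05 in WT heads and 0.09 in KO epiblasts, over 1800 windows, as a description).

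The level of a desert CpG depended strongly on how often it had been read. Among CpGs read 1 time, 81.4% of reads were methylated in KO heads, 81.6% in WT heads and 75.9% in KO epiblasts. At CpGs read 5 times the levels were 76.2%, 77.8% and 75.4%, and at CpGs read 10 times they were 42.4%, 49.8% and 57.5%. CpGs read this often were rare, with 595 read 10 times in KO heads, 723 in WT heads and 204 in KO epiblasts. Tiles of 5 to 49 CpGs showed a shallower decline, to 60.9%, 67.2% and 63.3% at 10 reads.

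Set side by side by depth, the levels of the pools stood apart by different amounts. The CpGs read a given number of times are not the same CpGs in each pool, so these differences compare sets of CpGs. The difference between KO heads and WT heads was -0.18 points at CpGs read 1 time (-0.32 to -0.04), -1.58 at 5 reads and -7.41 at 10 reads (-9.11 to -5.70). KO heads were 5.5 points above KO epiblasts at 1 read (5.35 to 5.66) and 0.86 points above at 5 reads, but below them at each depth from 6 to 10 reads (difference -2.35 at 6 reads and -15.1 at 10 reads). On the same CpGs, the 17730 desert CpGs with at least 3 reads in each pool (0.92% of all), the level was 59.7% in KO heads, 61.2% in WT heads and 60.9% in KO epiblasts, so that KO heads were below KO epiblasts there (difference -1.25). The order turned again at the deepest sites, since CpGs with over 20 reads in any pool had 31.7% in KO heads, 32.3% in WT heads and 12.3% in KO epiblasts.

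**Figure D2:**
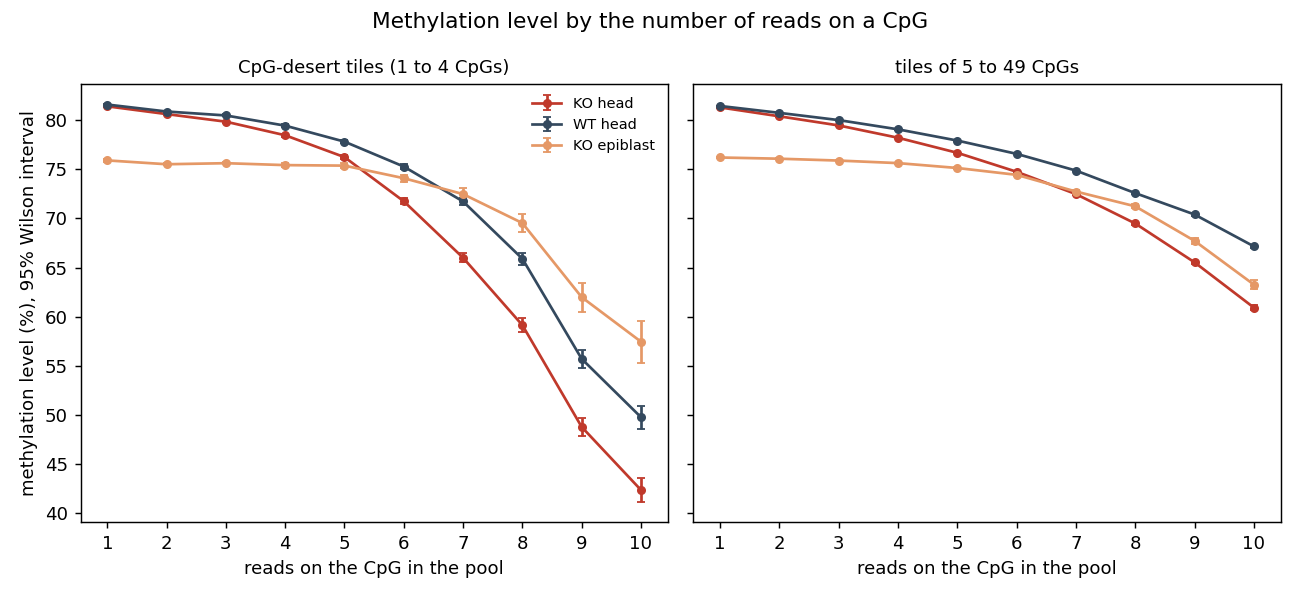
Methylation level (%, vertical axis, which does not start at 0) of CpGs by the number of reads on the CpG in the same pool (1 to 10, horizontal axis), for desert tiles on the left and tiles of 5 to 49 CpGs on the right, with 95% Wilson intervals. Levels fall with depth in every pool, more steeply in deserts and in heads, and the head curves cross that of KO epiblasts between 5 and 8 reads in deserts.

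A small set of desert CpGs carried very many reads in the KO epiblast pool, almost all of them unmethylated. In that pool 126 desert CpGs had over 50 reads, against 19 in KO heads and 23 in WT heads. These 126 CpGs lay in 120 tiles and took 0.80% of the desert reads of the pool, and 4.4% of their reads were methylated, against 21.4% and 30.4% at the CpGs of over 50 reads in KO heads and WT heads. On 107 of them at least 95% of the reads came from 1 strand, and their median depth was 2 reads in KO heads and 2.5 in WT heads. The deepest, at chr3:39323827, had 1 methylated read of 909 in KO epiblasts, with 3 of 9 in KO heads and 1 of 12 in WT heads. A few such sites were shared by all pools, such as chr18:3639080, with 2 methylated of 211 reads in KO heads, 0 of 273 in WT heads and 1 of 405 in KO epiblasts. Without the 510 CpGs that had over 20 reads in any pool, desert levels were 78.8% in KO heads, 79.5% in WT heads and 75.4% in KO epiblasts, and the difference between KO heads and KO epiblasts was 3.44 points. Whether duplicate reads had been removed is not given in the sources used here, and the part of amplification in these sites was not tested.

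Between the head pools, the desert difference was unevenly spread over the chromosomes. Chromosome 8 stood lowest, with 76.4% in KO heads and 79.2% in WT heads (difference -2.86, -3.19 to -2.54), followed by chromosome 17 with 76.3% and 78.5% (difference -2.14) and chromosome 14 with 78.0% and 79.9% (difference -1.89). Chromosome 2 went the other way, with 80.2% in KO heads and 78.9% in WT heads (difference 1.31, 1.06 to 1.57). The interval lay below 0 on 15 chromosomes, above 0 on chromosome 2 and held 0 on 3. All other tiles had differences from -1.51 on chromosome 8 to 0.22 on chromosome 2, the same pair at the ends of the order. These differences were smaller in size than in deserts on 14 of 19 chromosomes. Here and in the windows below, the other tiles include dense tiles, in which KO heads were above WT heads over all autosomes (difference 0.69). Tiles of 5 to 49 CpGs alone had -0.71 over all autosomes, close to the -0.73 of deserts. Whether they differed less than deserts on single chromosomes was not tested. In deserts the chromosome 8 difference was -3.21 when each covered CpG counted equally. It was -1.65 at CpGs with at least 3 reads in each pool, where that of chromosome 2 turned to -0.22. From the first strand alone the chromosome 8 difference was -2.311 (-2.76 to -1.86), and from the second strand alone -3.425 (-3.88 to -2.97). These intervals did not overlap, and why the strands differed was not tested. On chromosome 2 the strands gave 1.363 and 1.264.

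**Figure D3:**
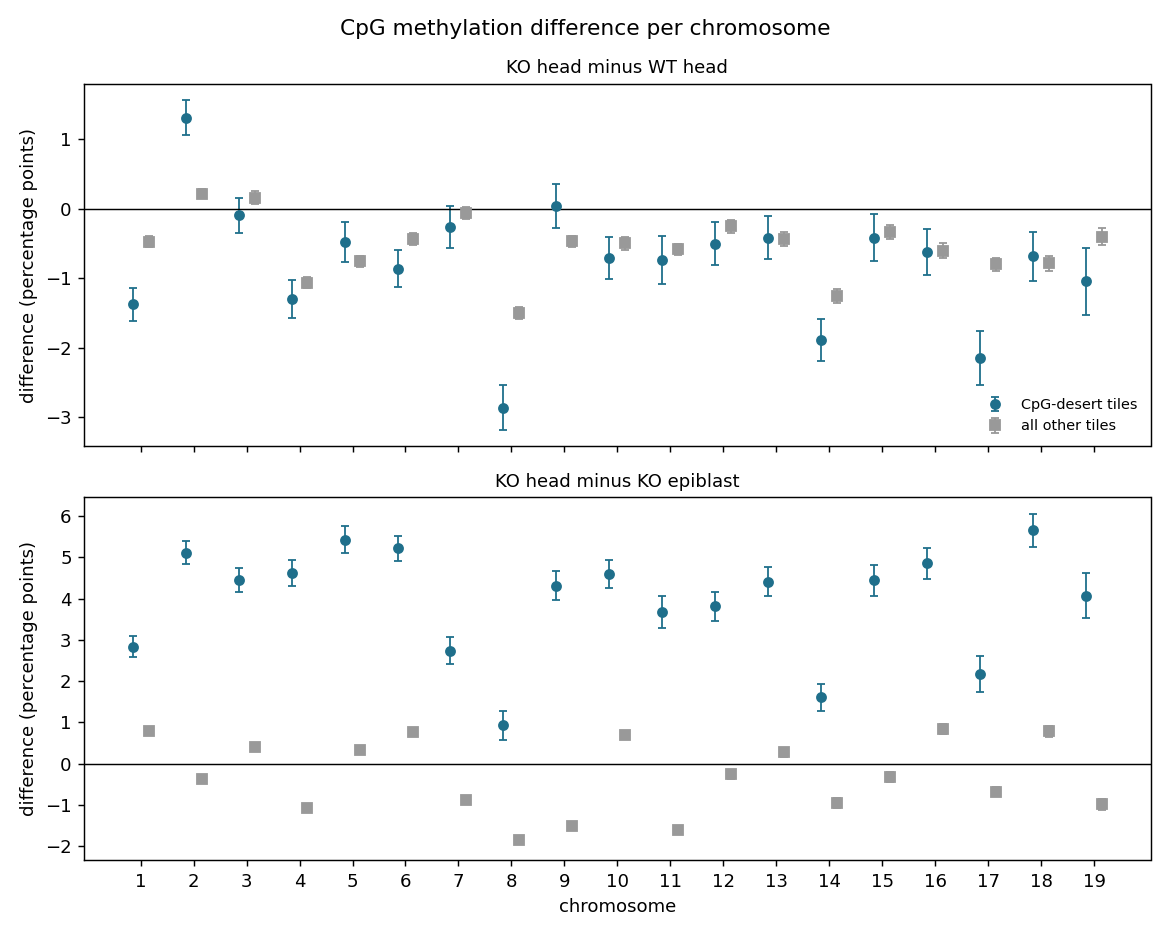
Difference in methylation level (percentage points, vertical axis) on each autosome (horizontal axis) for KO heads minus WT heads above and KO heads minus KO epiblasts below, in desert tiles (circles) and all other tiles (squares), with 95% Newcombe intervals as bars. In the upper panel chromosome 8 is lowest at -2.86 and chromosome 2 highest at 1.31 in deserts, and in the lower panel the desert difference is above 0 on all 19 chromosomes, lowest on chromosome 8 at 0.93.

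To see where these differences lay, desert reads were summed in 1 Mb windows. Of 2417 windows with a desert tile, 1800 had at least 500 desert reads in each pool and held 91.7% of the desert tiles. A window was called different where its levels differed by at least 5 percentage points and the interval excluded 0. KO heads were called higher than WT heads in 31 of 1800 windows (1.72%) and lower in 60 (3.33%). With the median difference subtracted, 46 were higher and 35 lower, so the excess of lower calls did not hold relative to the median. In the same windows all other tiles were called higher in 0.833% and lower in 1.28%, and all tiles together in 0.667% and 0.889%. These shares are read with unequal precision, since the other tiles of a window hold many more reads and their differences carry a counting error of 0.67 points, against 1.67 points for deserts. The desert differences had a median of -0.70 points and an SD of 2.49 points, wider than that counting error, and the other tiles had an SD of 1.91 points.

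The called windows gathered on a few chromosomes. Of the 60 lower windows, 18 lay on chromosome 8, which had 85 of the 1800 windows tested, and 10 on chromosome 1. Of the 31 higher windows, 15 lay on chromosome 2, which had 137 of the windows tested, and 4 on chromosome 9. Chromosome 8 had no higher window and chromosome 2 had 1 lower window. Among the called windows, 14 of the 60 lower and 16 of the 31 higher lay next to another window of the same call.

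On chromosome 8 KO heads were below WT heads along nearly the whole chromosome, with blocks of larger differences (all mm9). The interval lay below 0 in 13 of 14 blocks of 10 Mb, and 75 of the 85 windows had a difference below 0 (median -2.56). In the block from 30000000 to 39999999 the level was 67.8% in KO heads, 76.3% in WT heads and 78.6% in KO epiblasts, a difference between the head pools of -8.48 (-9.70 to -7.25). From 80000000 to 89999999 it was 74.7%, 79.2% and 77.8% (difference -4.43), and in the remaining block, from 110000000 to 119999999, the head pools did not differ beyond counting error (80.6% in KO heads and 80.3% in WT heads, -1.29 to 1.79). The window with the lowest value of KO heads minus WT heads was chr8:84000000-84999999, with 65.3% in KO heads (1592 reads), 77.5% in WT heads (1775 reads) and 80.6% in KO epiblasts (1534 reads), a difference of -12.2 (-15.2 to -9.15).

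The next largest lower windows lay on the same chromosome, with the exception of 1. At chr8:31000000-31999999 the level was 64.6% in KO heads and 75.8% in WT heads, at chr8:39000000-39999999 it was 64.3% and 75.2%, and at chr8:22000000-22999999 it was 62.2% and 72.0%. The remaining window, at chr18:37000000-37999999, had 67.6% in KO heads, 77.2% in WT heads and 64.2% in KO epiblasts, and here the other tiles of the window went the opposite way (difference 3.79). In the 18 lower windows of chromosome 8 the median level was 69.8% in KO heads, 77.0% in WT heads and 77.5% in KO epiblasts. KO epiblasts stood above KO heads in 16 of these 18 windows and above WT heads in 13, although over all deserts they were the lowest pool. The windows had been chosen for low values in KO heads relative to WT heads. The other tiles of all 18 windows were also lower in KO heads than in WT heads, with a median difference of -5.44. Single windows ranged from -9.30 to -0.16.

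On chromosome 2 the interval lay above 0 in 6 of 19 blocks and below 0 in none. From 40000000 to 49999999 the level was 81.0% in KO heads and 77.7% in WT heads (difference 3.33), from 80000000 to 89999999 it was 79.8% and 76.2% (difference 3.56), and from 120000000 to 129999999 it was 80.8% and 77.0% (difference 3.84), while from 60000000 to 69999999 it was 80.8% and 80.1%, within counting error (-0.34 to 1.70). The largest higher window, chr2:51000000-51999999, had 84.0% in KO heads (994 reads), 70.6% in WT heads (968 reads) and 80.5% in KO epiblasts (852 reads), a difference of 13.4 (9.8 to 17.1). The second, chr2:40000000-40999999, had 82.6% in KO heads and 73.6% in WT heads. A further pair, chr2:127000000-127999999 and chr2:122000000-122999999, had 80.9% and 79.4% in KO heads and 72.5% and 71.1% in WT heads. In the 15 higher windows of chromosome 2 the median was 81.9% in KO heads, 74.3% in WT heads and 76.8% in KO epiblasts. Outside chromosome 2, the window at chr12:29000000-29999999 had 74.8% in KO heads, 65.9% in WT heads and 79.4% in KO epiblasts.

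CpGs on which no read was methylated were also counted in the called windows. Among desert CpGs of the 18 lower windows of chromosome 8 with at least 4 reads in both head pools and at most 20 in any pool, 31 of 180 had no methylated read in KO heads (17.2%, Wilson interval 12.4% to 23.4%), against 14 of 180 in WT heads (7.78%, 4.69% to 12.6%). Over these 180 CpGs as a whole the level was nearly equal, at 57.4% in KO heads and 57.3% in WT heads. In each pool 28.9% of them were fully methylated. These CpGs thus do not show the difference of their windows. The lower windows of all chromosomes held 648 such CpGs. Of these, 93 had no methylated read in KO heads (14.4%) and 64 in WT heads (9.88%). Their level was 52.1% in KO heads and 57.5% in WT heads, a difference in the direction of their windows. In the 15 higher windows of chromosome 2 the counts without a methylated read were 13 of 145 in KO heads (8.97%) and 20 of 145 in WT heads (13.8%). Over all 31 higher windows they were 25 of 292 (8.56%) and 43 of 292 (14.7%). The intervals of the head pools overlapped in each of these sets, those of chromosome 8 included. In windows without a call the shares were 9.51% in KO heads and 9.0% in WT heads over 20510 CpGs. Among such windows of chromosome 8 they were 11.3% and 9.32% over 901 CpGs, and of chromosome 2 8.24% and 8.64% over 1493. The windows had been chosen by their level, so these shares describe them and are no separate evidence.

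**Figure D4:**
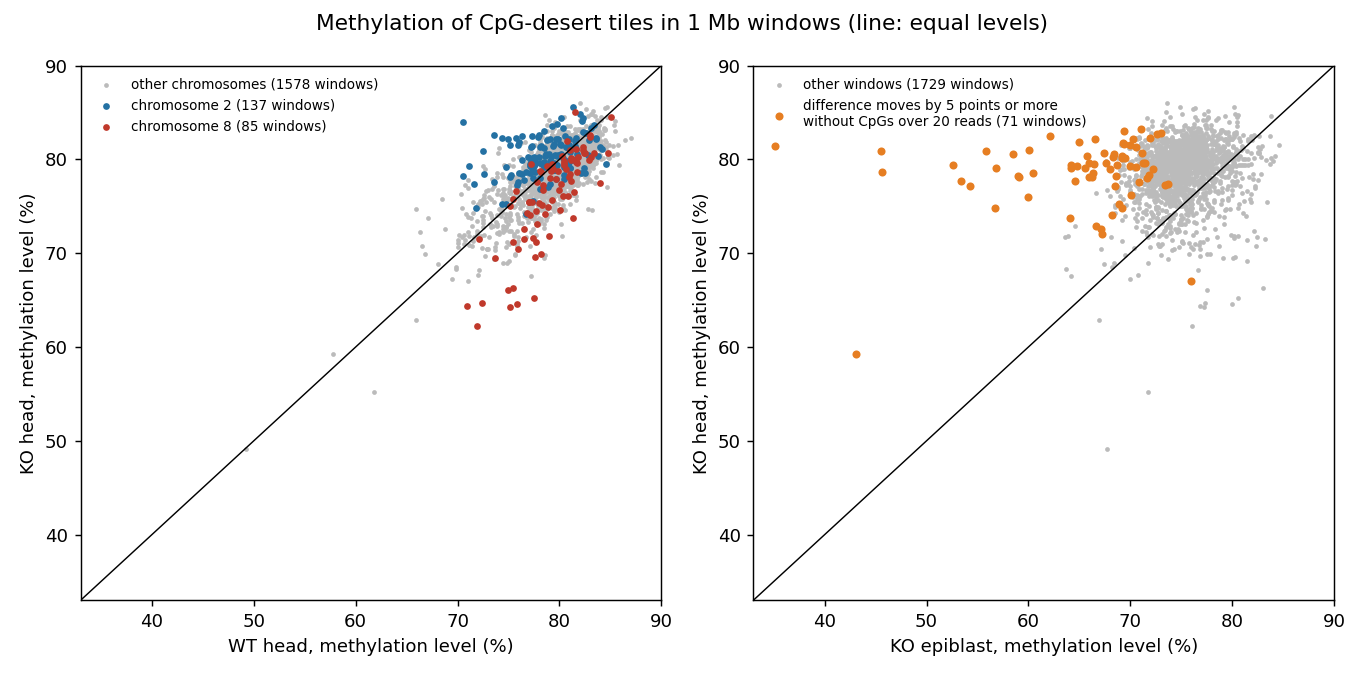
Desert methylation level (%) of 1800 windows of 1 Mb, KO heads (vertical axes) against WT heads on the left and against KO epiblasts on the right, with a line of equal levels. On the left, chromosome 8 windows reach a difference of -12.2 points below the line and chromosome 2 windows one of 13.4 points above it. On the right, coloured points mark 71 windows whose difference moves by at least 5 points without CpGs of over 20 reads, and they include the lowest KO epiblast levels, down to 35.1%.

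Between KO heads and KO epiblasts, the desert level was higher in heads on every autosome, from 0.93 points on chromosome 8 (76.4% in KO heads and 75.4% in KO epiblasts) and 1.61 points on chromosome 14 to 5.43 points on chromosome 5 and 5.66 points on chromosome 18 (79.1% and 73.4%). All other tiles of the chromosomes had differences of both signs, from -1.84 on chromosome 8 to 0.84 on chromosome 16. Here and in the windows below, the other tiles include dense tiles, which were read more deeply in KO heads. Tiles of 5 to 49 CpGs alone, over all autosomes, were 3.08 points above KO epiblasts in KO heads, so a higher level was not particular to deserts. The comparison of KO heads with KO epiblasts shares the KO head pool with the one above. Of the 1800 windows, 725 were called higher in KO heads (40.3%) and 54 lower (3.0%), or 130 and 213 with the median difference subtracted. Over the other tiles of the same windows 15.5% were called higher and 5.33% lower, and over all tiles 16% and 4.56%. The median window difference was 4.11 points in deserts and 1.31 points in the other tiles. Without CpGs of over 20 reads 661 windows were called higher and 49 lower, and 645 of the 725 kept the call.

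The largest higher windows of this comparison rested on the deep unmethylated sites of the KO epiblast pool. At chr2:154000000-154999999 the level was 81.4% in KO heads and 35.1% in KO epiblasts, but 82.5% and 80.1% without CpGs of over 20 reads. One CpG at chr2:154193574 had given 674 of the 1196 desert reads of that window in KO epiblasts, 2 of them methylated, with 672 on 1 strand. At chr6:115000000-115999999 the levels were 80.9% and 45.5%, or 81.4% and 72.8% without such CpGs, and at chr3:39000000-39999999 they were 78.7% and 45.6%, or 78.9% and 77.4%. The next pair, chr3:33000000-33999999 and chr12:96000000-96999999, had differences of 26.9 and 25.0 points, which were 6.31 and 8.72 points without such CpGs.

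The largest lower windows did not rest on such sites. At chr4:113000000-113999999, the least methylated desert window in both head pools, the level was 49.2% in KO heads (911 reads), 49.3% in WT heads (1118 reads) and 67.7% in KO epiblasts (1099 reads). KO heads were below KO epiblasts there (difference -18.5, -22.7 to -14.2), and the head pools differed by less than the counting error. The adjacent window chr4:112000000-112999999 had 55.2% in KO heads, 61.8% in WT heads and 71.8% in KO epiblasts. The other tiles of both windows were lower in KO heads as well, by a smaller margin (differences of -6.93 and -6.48). The remaining 3 of the 5 lay on chromosome 8, at 31000000, 33000000 and 84000000, where WT heads were also below KO epiblasts (75.8% and 79.9%, 75.5% and 83.1%, and 77.5% and 80.6%).

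Desert windows varied little in level. The 5th to 95th percentiles were 72.5% to 82.6% in KO heads, 73.3% to 83.4% in WT heads and 69.4% to 80.3% in KO epiblasts. The SD over windows was 3.27, 3.16 and 3.78 points, against counting errors of 1.20, 1.15 and 1.41 points. Without CpGs of over 20 reads the SD was 3.17, 3.07 and 2.79 points, so that KO epiblasts went from the widest spread to the narrowest. The highest windows of WT heads were chr15:10000000-10999999, with 82.2% in KO heads, 87.0% in WT heads and 70.5% in KO epiblasts, and chr6:28000000-28999999, with 82.1%, 86.4% and 76.0%. Among the lowest was also chr18:3000000-3999999, with 59.2% in KO heads and 57.8% in WT heads, which were 76.4% and 77.6% without CpGs of over 20 reads.

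The order of desert windows was shared by the head pools and hardly by heads and epiblasts. Across the 1800 windows Pearson's r was 0.70 between KO heads and WT heads (Spearman's rho 0.62) and 0.15 between KO heads and KO epiblasts (rho 0.18). In the other tiles of the same windows r was 0.98 and 0.89. These are descriptions over windows that share libraries. Desert windows span a narrower range than the other tiles, whose SD over windows was 8.70 points in KO heads, and carry a larger counting error, and the part of either in the lower r was not tested. Without CpGs of over 20 reads the desert values were 0.68 and 0.18.

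Single CpGs were often in a mixed state. Among desert CpGs with 1 read on each strand, both reads were methylated at 66.9% in KO heads, 67.1% in WT heads and 58.5% in KO epiblasts, and neither at 4.77%, 4.69% and 8.07% (137708, 133866 and 75358 CpGs). The strands disagreed at 28.4%, 28.2% and 33.4% of these CpGs, against 30.7%, 30.5% and 37.3% if the strands were read independently at the same levels. In tiles of 5 to 49 CpGs the strands disagreed less often, at 25.4% in KO heads, 24.9% in WT heads and 30.5% in KO epiblasts, although the levels of each strand were close (80.3%, 80.6% and 75.2% on the first strand, against 81.2%, 81.2% and 75.2% in deserts). The 2 reads come from different molecules or strands of a pool, so this is no measure of copying within 1 molecule.

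Desert tiles with a low level existed but were few. Of tiles with at least 10 reads, 3.28% had a level of at most 20% in KO heads (1190 of 36250), 2.36% in WT heads (1051 of 44557) and 3.21% in KO epiblasts (612 of 19078). In 1331 tiles with at least 10 reads in each pool and at most 10 reads per CpG, 100 had a level of at most 20% in KO heads, 76 in WT heads and 45 in KO epiblasts, and 12 in all 3. Of the 76 tiles low in WT heads, 42 were also at most 20% in KO heads and 20 in KO epiblasts, while 35 had 50% or more in KO epiblasts. These tiles are among the most deeply read, and levels were lower at deeply read CpGs.

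The 5 tiles lowest in WT heads, all with no methylated read there, show this spread. The tile chr1:65468000-65468999 had 6 methylated of 23 reads in KO heads, 0 of 26 in WT heads and 5 of 39 in KO epiblasts, and chr1:90118000-90118999 had 14 of 38, 0 of 15 and 3 of 26. The tile chr15:15672000-15672999 was nearly unmethylated in both head pools (1 of 13 in KO heads and 0 of 17 in WT heads) but had 16 of 23 in KO epiblasts. The last pair, chr5:77875000-77875999 and chr4:17430000-17430999, had 4 of 22 and 4 of 20 in KO heads, 0 of 12 and 0 of 16 in WT heads, and 2 of 14 and 5 of 10 in KO epiblasts. Since they were chosen by their WT head level, their lower level in WT heads is no finding.

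RNA of the same stages and genotypes gives the setting, as FPKM (fragments per kilobase, scaled to the number of fragments in the library) in columns in which the authors had merged the samples of each group, so that no spread can be given. Wbp7, the symbol of Kmt2b in that table, had 0.13 FPKM in KO heads and 0.60 in WT heads, and 0.31 in KO epiblasts and 0.70 in WT epiblasts. Dnmt3b, which sets up methylation, had 93.4 FPKM in KO heads, 55.2 in WT heads and 726 in KO epiblasts, and Dnmt3a had 7.21, 6.51 and 48.7. Its cofactor Dnmt3l had 0.53, 0.33 and 7.52. Of the genes that copy methylation, Dnmt1 had 14.5, 17.8 and 24.5 FPKM and Uhrf1 61.5, 72.9 and 74.9. Of the Tet enzymes, which oxidise methylated cytosine, Tet1 had 3.24, 2.50 and 8.09, Tet2 0.48, 0.31 and 0.11, and Tet3 2.86, 3.27 and 1.60.

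Markers of cell types also differed between the groups. All 3 embryonic globins, markers of red cells, were lower in KO heads, with summed levels of 4.88 FPKM in KO heads and 97.7 in WT heads, and all were at 0 in KO epiblasts. Of 6 epiblast markers, 5 were higher in KO heads than in WT heads, among them Pou5f1 with 16.9 and 3.91 FPKM, and 1, Otx2, was lower (62.8 and 87.4). All 6 neural head markers were lower in KO heads (summed 73.2 and 118 FPKM), among them Pax6 with 4.59 and 19.5, and Zic1 was below 1 FPKM in both. Otx2 is in both lists and gave most of these sums (62.8 and 87.4). In KO epiblasts Otx2 had 118 FPKM and no other neural marker reached 1 FPKM. The 4 visceral endoderm markers were below 1 FPKM in every group, and of 4 extraembryonic ectoderm markers only Eomes (18.4) and Bmp4 (1.91) passed 1 FPKM in KO epiblasts. The part of cell makeup in the differences between the methylation pools was not tested.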

How the data were processed

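CpG methylation was analysed in 3 pooled files (KO head, WT head, KO epiblast), 1 for each group. The authors deposited them as whole-number read counts per CpG, methylated and unmethylated on each strand, with no header. Per the labels, libraries followed STEM-seq; the submitters' processing notes name Trim Galore, BS-Seeker2 and the mm9 build. Filters and duplicate removal are not given in the sources used here, nor is whether positions count from 0 or 1, so coordinates are printed as in the files. The authors deposited RNA values as FPKM, from TopHat2 2.0.11 and Cufflinks 2.0.2 per the submitters' processing notes; the 4 merged columns used hold nearly the same sorted values, as after quantile normalization, and 2 columns of no listed sample were not used.

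All 3 files held the same 21342492 CpGs, of which chromosomes 1 to 19 were used. A level is methylated reads over all reads, summed over the CpGs of a set. Windows were called at 5 percentage points with a 95% Newcombe interval that excludes 0 and at least 500 desert reads in each pool. The calling was tested on simulated data with changed windows. With 1 pool per group no test was made, and depth (1.08 to 1.40 reads per desert CpG) allows only summed levels. No molecular identifiers mark PCR copies, and the intervals hold counting error alone.

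Named windows were the 5 largest differences of each sign, and the 5 lowest and 5 highest WT head levels, of which some are printed; named tiles were the 5 lowest in WT heads by the stated depth limits. Other sites were chosen after their values were seen, as were the settings that leave out deeply read CpGs or single chromosomes. The tiles, gene lists and rules were chosen with earlier results of these data known. Gene annotation and sequence of the windows were not used here, for want of an mm9 genome. Python 3.11.15 with numpy 2.4.6, pandas 2.3.3, scipy 1.17.1 and matplotlib 3.10.9 was used.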

Additional observations from a re-analysis of the deposited data

How the results depend on the processing

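No paired analysis was possible because the authors pooled the samples of each group in 1 file, and for the same reason no replicate could be left out. Differences are in percentage points, and counts are of 1 Mb windows called at least 5 points apart. KO heads stayed below WT heads over all deserts under all 14 settings tried (-1.58 to -0.37, against -0.73). The values farther off than counting error were -0.87 with 1 to 2 CpGs per tile, -0.37 with each covered CpG weighted equally, -1.58 at CpGs with at least 3 reads in each pool, -0.62 without chromosome 8 and -0.89 without chromosome 2. KO heads stayed above KO epiblasts under 13 of 14 settings (3.96 as reported), with 4.66 at equal weights, 2.71 at CpGs with 1 to 10 reads in each pool, 3.436 and 3.435 without CpGs of over 20 or over 50 reads in any pool, 4.12 without chromosome 8 and 3.87 without chromosome 2. At CpGs with at least 3 reads in each pool this difference reversed to -1.25. There the difference of KO heads and WT heads on chromosome 2 reversed to -0.22, with an interval that held 0 (-1.94 to 1.51). These more deeply read CpGs had low levels in all 3 pools, and why the signs turned was not tested.

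Between KO heads and WT heads, 31 windows were higher and 60 lower. The counts were 81 and 232 at 3 points, 1 and 3 at 10 points, and 15 and 23 with at least 1000 reads, where 956 windows were tested. After the median difference was subtracted they were 46 and 35, which turns the excess of lower windows into an excess of higher ones. The lower count alone moved to 102 with at least 200 reads, and the higher count alone to 16 without chromosome 2. Between KO heads and KO epiblasts, 725 windows were higher and 54 lower. The counts were 85 and 17 at 10 points, 402 and 24 with at least 1000 reads, 130 and 213 after the median difference was subtracted, 275 and 32 at CpGs with 1 to 10 reads in each pool (949 windows) and 376 and 27 from the first strand (961 windows), and 402 were higher from the second strand (966 windows). Tiles of 1 to 2 CpGs left 10 windows, with 0 higher and 1 lower than WT heads and 3 higher and 0 lower than KO epiblasts. CpGs with at least 3 reads in each pool left 3 windows, with 0 and 0 against WT heads and 1 and 0 against KO epiblasts. Where fewer windows were tested, a smaller count need not mean a smaller share of windows called. The other settings kept each count within 1.5 times, but where fewer windows were tested an unchanged count means a larger share. Lower than WT heads were 60 of 961 windows from the first strand and 63 of 966 from the second. At CpGs with 1 to 10 reads in each pool they were 67 of 949, against 60 of 1800 as reported. The higher counts in these settings were 25, 22 and 22, against 31 of 1800. Depth limits all single tiles and CpGs.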
